A study of Arabidopsis thaliana with 6 samples.

Results

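The genes described here lie side by side on chromosome 1 of Arabidopsis thaliana, in a segment that ends just before ORE15. They are the rows of the deposited count table whose gene identifiers run from AT1G24530 to AT1G31020, with FEZ, HK3, RSL4 and GH3.17 left out by the rule of choice. That gave 394 members of 18734 genes in the table, and all 394 entered the fit over 18726 genes. The segment was chosen by the measured log2 fold changes of ore15-2 over Col in these same libraries, so the size of the rise is a description of the choice and no test of it is given. The values below show how large the rise was gene by gene, and which members did not share it.

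The RNA came from the outermost 0.5 cm of primary roots, taken from seedlings 5 days after planting that were grown upright on half-strength Murashige and Skoog medium with sucrose under continuous light, without hormone treatment as far as the RNA extraction text says. Col was the wild type, and ore15-2 carried a T-DNA insertion in ORE15, both in the Columbia-0 background, with 3 libraries each. The labels count 2 seedlings for a genotype and do not speak of separate cultures, so the spread between libraries, and the p-values that rest on it, may be technical. Only this 1 insertion line was measured. The labels call the cells root meristem stem cells, but differentiated tissue was present as well. All 9 markers of the stem cell niche and meristem were in the table, with summed levels of 150 to 159 CPM (counts scaled to a library size common to all samples) in Col and 124 to 172 CPM in ore15-2. The 6 markers of differentiated endodermis summed to 382 to 487 CPM in Col and 466 to 674 CPM in ore15-2, and the 5 markers of differentiated root hairs to 253 to 295 CPM and 430 to 773 CPM. Root cap markers (3 of 3 in the table) summed to 25.3 to 31.0 CPM in Col and 33.0 to 41.5 CPM in ore15-2, and the 5 markers of green tissue to 296 to 346 CPM and 199 to 354 CPM. The part of these markers in the values below was not tested.

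ORE15 encodes a transcription factor of the PLATZ family, plant proteins that bind zinc and AT-rich DNA, and is known for delaying leaf ageing and for setting the size of the root meristem. A T-DNA insertion line carries foreign DNA at a site in the genome. Most Arabidopsis genes are regulated singly, and neighbours usually have unrelated functions, apart from families that lie in tandem rows. The segment holds genes of nearly every kind, from translation factors and transporters to transcription factors and wall enzymes, together with tandem rows of berberine bridge enzyme-like oxidases, GDSL lipases and chlorophyll-binding proteins.

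The segment spans chr1:8692630-11059037 in TAIR10.1, which is 2.37 Mb, and 10472 bp lie between its last gene and ORE15 (AT1G31040, 11069510 to 11072564). The reference annotation gives 790 features in the span, of which 401 were in the count table. Of its 587 protein-coding genes 389 were in the table and 198 were not analysed here. Among the 394 members 385 code for proteins, 7 are long noncoding RNAs, 1 is a small nucleolar RNA and 1 another noncoding RNA. The plus strand holds 204 members. The annotation gives a symbol for 147 of them, and 121 overlap another gene. The sequence beside the outermost members is shown to mark the edges set by the rule. Between tested genes, the rule puts the low edge somewhere from chr1:8688247 to 8692630. It puts the high edge from 11059037 to 11075398, a stretch that holds ORE15. The rule drew on the same fold changes, so whether the change itself falls in these stretches was not tested. Where in them it would lie was not resolved. These are the 250 bases before the first member (chr1:8692380-8692629, plus strand) and the 250 bases after the last one (chr1:11059038-11059287, plus strand), 5′ to 3′, from the RefSeq TAIR10.1 genome, with no letters marked.
before AT1G24530: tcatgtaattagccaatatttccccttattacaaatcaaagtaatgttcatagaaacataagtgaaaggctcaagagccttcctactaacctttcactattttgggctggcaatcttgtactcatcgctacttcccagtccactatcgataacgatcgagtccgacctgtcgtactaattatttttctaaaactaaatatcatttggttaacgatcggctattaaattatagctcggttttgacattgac
after AT1G31020: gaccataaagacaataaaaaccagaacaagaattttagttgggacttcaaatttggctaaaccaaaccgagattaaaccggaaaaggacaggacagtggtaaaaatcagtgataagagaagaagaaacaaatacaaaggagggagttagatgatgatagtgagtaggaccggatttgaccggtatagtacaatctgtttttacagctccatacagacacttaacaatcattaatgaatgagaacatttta

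ORE15 itself had 13, 12 and 8 counts in Col but 0, 0 and 1 counts in ore15-2 (replicates 1 to 3 in order). The reference gives no symbol for this identifier, so its pairing with ORE15 is background knowledge. The libraries held 17433440 to 20333352 counts in Col, and 6706712, 6396903 and 16503138 in ore15-2 replicates 1 to 3. Replicates 1 and 2 of ore15-2 stood apart from the rest, with mitochondrial genes at 2.91% and 3.20% of counts, against 0.328% in replicate 3 and 0.18% to 0.25% in Col. Results that rest on them are given per library. Bulk RNA cannot tell more RNA per cell from more cells of a type that makes it.

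Members took 1.88%, 1.86% and 1.85% of all counts in the Col libraries and 3.26%, 3.20% and 3.33% in the ore15-2 libraries. The share was higher in each ore15-2 library than in each Col library, and was alike in the 2 libraries that stood apart and in the one that did not. Set against the Col mean, the median member stood at 0.998, 1.00 and 0.998-fold in the Col libraries. In the ore15-2 libraries it stood at 1.93, 1.84 and 1.92-fold. The middle 50% of members lay at 1.63 to 2.22-fold in ore15-2 replicate 1, 1.43 to 2.52-fold in replicate 2 and 1.74 to 2.11-fold in replicate 3. In the fit over all 6 libraries the median log2 fold change was 0.95, with quartiles at 0.74 and 1.17 and a range from -0.67 to 3.11. The median of the genes outside with a mean of at least 5 CPM was 0.00.

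Of the 394 members 312 rose by edgeR's quasi-likelihood test (adjusted p under 0.05 over all genes), against 6.47% of all genes tested, and 1 fell, against 3.43%. Every ore15-2 library was above every Col library in 346 members (18.2% of all genes) and below in 2 (16.3% of all genes). These counts restate the choice of the segment. Without Col replicates 1, 2 or 3 the number that rose was 240, 225 or 243, and without ore15-2 replicates 1, 2 or 3 it was 266, 353 or 319. Without ore15-2 replicates 1 and 2 together it was 361 and the median log2 fold change was 0.96. In 283 members (71.8%) the fold lay between 1.5 and 2.5, in 54 it was under 1.5 and in 57 over 2.5. The 4 genes left out by the rule, RSL4, FEZ, HK3 and GH3.17, lay among them, with log2 fold changes of 1.08, 1.13, 0.91 and 1.07.

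At both edges set by the rule, the nearest tested genes outside were lower than the members beside them. The rise kept about the same size from end to end. On the side away from ORE15, the 3 genes just outside were TNO1, ALB4 and AT1G24510, with log2 fold changes of -0.01, -0.19 and 0.28. The first 3 members were AT1G24530, a WD40 repeat protein, at 0.73, AT1G24560 at 0.63 and AT1G24575 at 2.73. The 20 tested genes before the segment ranged from -0.71 to 0.65. The highest of them, AT1G24430, was at the level of AT1G24560, with changes of 0.72, 0.78 and 0.49 in ore15-2 replicates 1 to 3. On the side of ORE15, the last 3 members were AT1G30990 at 1.25, OSB4, which binds single-stranded DNA in organelles, at 0.90 and TO2, a thioredoxin, at 1.25. The 3 tested genes beyond them were AT1G31050 at -0.18, GlcNAc1pUT1 at 0.04 and the potassium transporter KUP10 at -0.49. TO2 had 26.4, 23.8 and 23.5 CPM in Col and 56.1, 65.6 and 54.3 CPM in ore15-2, so the member nearest to ORE15 was separated between the genotypes. GlcNAc1pUT1, the second tested gene on the far side of ORE15, changed by -0.04, 0.04 and 0.11 in ore15-2 replicates 1 to 3.

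Across the segment, the 340 members with a mean of at least 5 CPM were cut into 17 runs of 20 along the chromosome. Run medians ranged from 0.86 (1.82-fold, AT1G30490 to AT1G30720) to 1.18 (2.26-fold, AT1G28580 to AT1G29170). In single libraries they ranged from 0.81 to 1.10 in ore15-2 replicate 1, from 0.71 to 1.23 in replicate 2 and from 0.86 to 1.09 in replicate 3. The first 20 members had a median of 1.04 and the last 20 of 0.96, while the 20 tested genes before the segment had a median of 0.03 and the 20 after it of -0.06. No run lay near the level of the genes outside.

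**Figure D1:**
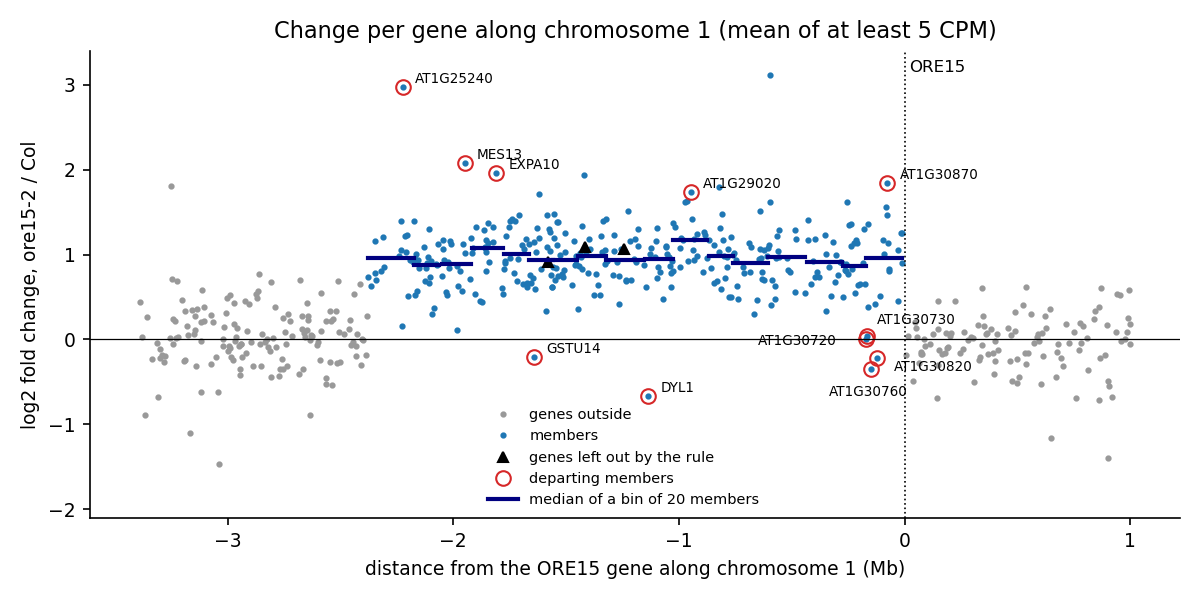
Log2 fold change of ore15-2 over Col (vertical) for each gene with a mean of at least 5 CPM, by its distance in Mb from ORE15 on chromosome 1 (horizontal). Blue points are members, grey points genes outside, triangles 3 of the genes left out by the rule (FEZ is under 5 CPM), dark bars the medians of runs of 20 members and red circles the members that depart in every ore15-2 library. Run medians stay between 0.86 and 1.18 across the segment, and the grey points on both sides scatter about 0.

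Around its raised middle the segment was about as scattered as the rest of the genome. Over the 340 members with at least 5 CPM the interquartile range of the log2 fold change was 0.43, against 0.40 over 15059 genes outside. In ore15-2 replicates 1, 2 and 3 it was 0.45, 0.82 and 0.28 among members and 0.44, 0.74 and 0.29 among genes outside. Within 0.5 of their own median lay 84.7%, 61.2% and 92.1% of members, and 83.7%, 62.7% and 91.4% of genes outside. Replicate 3 had the tightest values and replicate 2 the widest, in both sets. The SD of a gene's change over the 3 ore15-2 libraries had a median of 0.21 among members and 0.22 outside, and over the Col libraries 0.08 in both sets. In ore15-2 replicates 1, 2 and 3 there were 6, 17 and 8 of the 340 members at or below the Col mean.

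**Figure D2:**
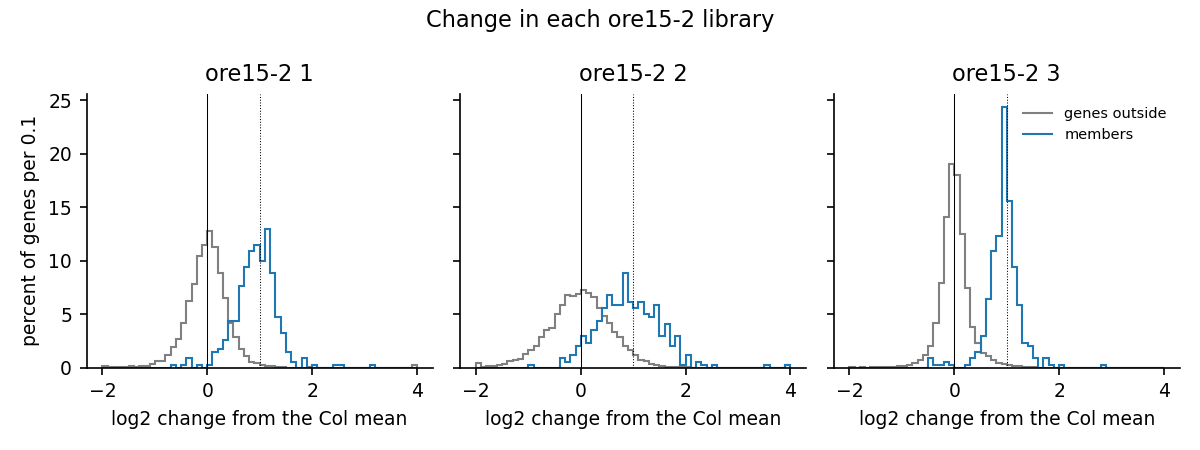
Percent of genes (vertical) per 0.1 of log2 change from the Col mean (horizontal) in each ore15-2 library, for members (blue) and genes outside (grey) with a mean of at least 5 CPM. The members' curve lies to the right of the other by about the same step in each library, with medians of 0.95, 0.88 and 0.94, and both curves are widest in replicate 2.

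Departing members were defined as those with at least 5 CPM whose log2 change was at least 0.5 away from the members' median, to the same side, in every ore15-2 library. Above it were 5 of 340 members (1.47%), and below it 6 (1.76%). By the same rule about their own median, 2.34% of genes outside departed above and 1.82% below. Departing members were therefore about as common as departing genes elsewhere, and their number is not a result about the segment. Without ore15-2 replicate 3, which had the least scatter, the counts were 17 above and 24 below. Without Col replicate 3 they were 8 and 8.

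The member that departed most in the upper direction was AT1G25240, which encodes a protein with an ENTH/VHS/GAT domain, a fold known from adaptors of vesicle transport. It had 0.726, 1.09 and 2.25 CPM in Col and 7.43, 16.3 and 9.38 CPM in ore15-2. All 3 ore15-2 libraries were well above Col, although the Col counts were only 14, 24 and 47. Its log2 fold change was 2.97 (SE 0.40), whereas 14 other genes of that family ranged from -0.33 to 0.12. Here and below, relatives outside the segment are genes matched by product name with a mean of at least 5 CPM. Its neighbour AT1G25230, a metallophosphoesterase named after its values were seen, went a different way, with 58.1, 64.6 and 67.7 CPM in Col and 51.0, 58.8 and 99.0 CPM in ore15-2. That neighbour was raised only in replicate 3.

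MES13, a member of a family of esterases that cleave methyl esters, had 4.51, 5.13 and 6.02 CPM in Col and 19.1, 24.9 and 22.5 CPM in ore15-2 (log2 fold change 2.08, SE 0.17). EXPA10, an expansin, which loosens the cell wall, had 3.32, 3.13 and 3.87 CPM in Col and 14.5, 14.7 and 11.6 CPM in ore15-2 (1.96, SE 0.17). For both genes the genotypes were separated by a wide gap, and replicate 3 was at the level of the other ore15-2 libraries. The 12 other alpha-expansins with at least 5 CPM had a median of 0.43, with 0.48, 0.74 and 0.03 in ore15-2 replicates 1 to 3. The 8 other methyl esterases with at least 5 CPM had a median of 0.08.

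AT1G30870, a peroxidase of the secreted class that acts on cell wall polymers, had 98.7, 109 and 109 CPM in Col and 315, 531 and 295 CPM in ore15-2 (log2 fold change 1.85, SE 0.22). It overlaps AT1G30880 by 82 bp on the other strand, and that neighbour was itself at 1.46. Reads of the pair may not be told apart, since the strand setting of the counting is not given in the sources used here. AT1G29020, a calcium-binding EF-hand protein, had 10.5, 12.1 and 13.04 CPM in Col and 35.2, 45.1 and 39.0 CPM in ore15-2 (1.74, SE 0.13). The adjacent AT1G29025, of the same family, had 42.5, 40.2 and 43.2 CPM in Col and 107, 130 and 102 CPM in ore15-2 (1.42, SE 0.11). The pair stood high in every ore15-2 library, and the third EF-hand member, AT1G24620, was at 1.16.

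Among the members that stayed below, DYL1 was the 1 that fell and the lowest of all. It belongs to the dormancy-associated family, whose transcripts are known to build up in resting buds. It had 143, 170 and 153 CPM in Col and 96.1, 82.3 and 114 CPM in ore15-2 (log2 fold change -0.67, SE 0.14), with no overlap between the genotypes. The call was lost without Col replicate 2, Col replicate 3 or ore15-2 replicate 1, where 0 members fell. The 3 other dormancy-associated genes, which lie outside the segment, had a median of -0.71 and ranged from -1.92 to -0.12, a range that holds the value of DYL1.

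The most compact exception was a row of berberine bridge enzyme-like genes close to the ORE15 end. These are flavin-dependent oxidases, and plant members of the family are known to oxidise sugars, monolignols and defence compounds. AT1G30720 had 27.8, 29.7 and 26.9 CPM in Col and 31.3, 28.4 and 25.8 CPM in ore15-2 (log2 fold change 0.01, SE 0.11). AT1G30730 had 14.1, 15.7 and 14.4 CPM in Col and 15.8, 17.5 and 12.9 CPM in ore15-2 (0.04, SE 0.15). In these genes the genotypes overlapped and no rise was visible. AT1G30760 had 11.9, 13.3 and 12.6 CPM in Col and 10.02, 9.94 and 9.89 CPM in ore15-2 (-0.34, SE 0.13), so each ore15-2 library was below each Col library. AT1G30700, at the start of the row, was intermediate, with 166, 168 and 162 CPM in Col and 267, 250 and 264 CPM in ore15-2 (0.65, SE 0.11). A more distant member of the family, AT1G26420, was at -0.08 but only at 1.78 to 2.91 CPM over the 6 libraries. The 9 genes of the family outside the segment with at least 5 CPM had a median of 0.13.

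Genes beside and within that row were mixed. AT1G30690, a lipid transfer protein of the Sec14 type just before it, was at 1.30 (SE 0.13), and AT1G30750, between AT1G30730 and AT1G30760, was at 1.36 (SE 0.18). AT1G30755 and AT1G30757, which overlap each other by 781 bp in the same interval, were at 0.38 and -0.22. These genes were named after their values were seen. AT1G30820, a CTP synthase, which makes a building block of RNA and DNA, had 140, 156 and 157 CPM in Col and 115, 123 and 150 CPM in ore15-2 (-0.22, SE 0.13), with replicate 3 inside the Col range. The 3 other CTP synthases with at least 5 CPM had a median of -0.33. The purine permease PUP4, a little further on, was at 1.17.

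GSTU14, a glutathione transferase of the tau class, had 24.9, 24.6 and 28.1 CPM in Col and 18.6, 31.0 and 18.8 CPM in ore15-2 (log2 fold change -0.21, SE 0.19). Its direct neighbour GSTU13 of the same class had 186, 210 and 196 CPM in Col and 423, 543 and 345 CPM in ore15-2 (1.15, SE 0.18). The genotypes overlapped for GSTU14 and were separated for GSTU13, 2 adjacent genes on the same strand. The 20 other tau-class genes with at least 5 CPM had a median of 0.25.

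**Figure D3:**
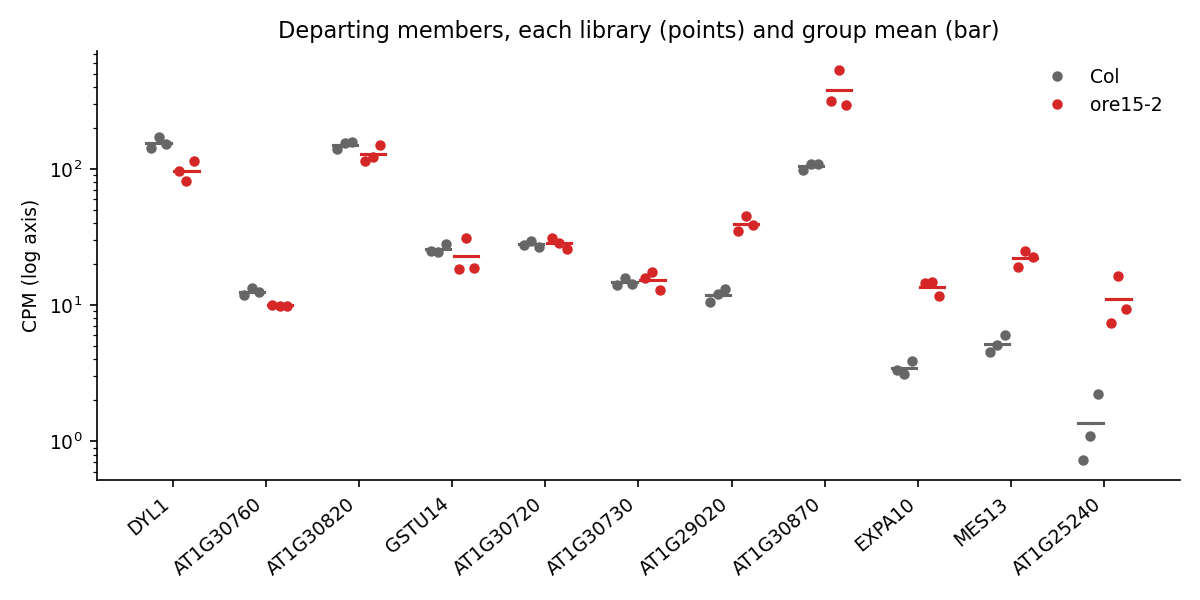
Level in CPM (vertical, log axis) of the 11 departing members (horizontal) in each Col library (grey points) and each ore15-2 library (red points), with bars at the group means. From DYL1 to AT1G30730 the groups overlap or ore15-2 is lower, and from AT1G29020 to AT1G25240 each ore15-2 point is above each Col point of that gene.

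The promoters of the members that departed most, and of the unraised row, are shown so that their sequence can be set beside these values. Each line gives the 250 bases before the annotated start of the gene, 5′ to 3′ on the gene's strand, from the RefSeq TAIR10.1 genome, and capitals mark matches to a G-box (CACGTG), a W-box core (TTGAC, or GTCAA on the opposite strand) or an I-box (GATAAG, or CTTATC on the opposite strand). A further search, for TATCCA on both strands, found no match in them. The windows lie at chr1:9935441-9935690 (minus strand) for DYL1, and on the plus strand at chr1:10897675-10897924 for AT1G30720, chr1:10900431-10900680 for AT1G30730, chr1:10918017-10918266 for AT1G30760 and chr1:8844892-8845141 for AT1G25240.
DYL1: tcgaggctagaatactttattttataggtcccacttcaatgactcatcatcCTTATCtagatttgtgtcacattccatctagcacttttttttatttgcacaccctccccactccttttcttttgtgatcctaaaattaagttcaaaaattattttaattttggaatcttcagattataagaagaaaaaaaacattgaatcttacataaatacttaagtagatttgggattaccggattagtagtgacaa
AT1G30720: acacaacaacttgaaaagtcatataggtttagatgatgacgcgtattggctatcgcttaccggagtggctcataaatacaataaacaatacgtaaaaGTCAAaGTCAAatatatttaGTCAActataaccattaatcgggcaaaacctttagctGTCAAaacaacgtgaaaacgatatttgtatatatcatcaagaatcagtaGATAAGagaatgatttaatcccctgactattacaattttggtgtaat
AT1G30730: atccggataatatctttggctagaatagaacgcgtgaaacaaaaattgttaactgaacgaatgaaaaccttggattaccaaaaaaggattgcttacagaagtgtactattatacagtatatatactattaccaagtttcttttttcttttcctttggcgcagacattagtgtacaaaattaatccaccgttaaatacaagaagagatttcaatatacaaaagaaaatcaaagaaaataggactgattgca
AT1G30760: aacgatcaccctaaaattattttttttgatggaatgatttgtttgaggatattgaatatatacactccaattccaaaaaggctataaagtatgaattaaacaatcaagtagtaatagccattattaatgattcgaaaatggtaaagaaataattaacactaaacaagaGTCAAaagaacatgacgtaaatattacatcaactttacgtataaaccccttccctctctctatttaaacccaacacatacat
AT1G25240: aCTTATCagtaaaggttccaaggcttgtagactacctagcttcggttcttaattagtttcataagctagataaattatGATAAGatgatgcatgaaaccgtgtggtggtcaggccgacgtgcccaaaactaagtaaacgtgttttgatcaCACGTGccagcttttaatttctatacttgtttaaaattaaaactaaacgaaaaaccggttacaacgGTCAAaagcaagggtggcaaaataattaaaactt
The DYL1 window held 1 I-box match and overlaps the annotated RNA gene AT1G09025. That of AT1G30720 held 4 W-box cores and 1 I-box, that of AT1G30760 held 1 W-box core, and that of AT1G30730 held none of the letters searched. The AT1G25240 window held 1 G-box, 1 W-box core and 2 I-boxes. No 2 of these matches overlap. Over 18681 such windows before genes of the table, 7.32% held the G-box, 45.4% the W-box core, 14.2% TATCCA and 12.1% the I-box. A match describes letters only and says nothing of a factor.

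The 3 chlorophyll a/b-binding genes of the segment, antenna proteins of photosystem II, were uneven and highest in the libraries that stood apart. CAB2 had 2.02, 1.54 and 2.58 CPM in Col and 18.6, 33.8 and 4.80 CPM in ore15-2, and its log2 fold change of 3.11 (SE 0.61) was the highest of any member. CAB3 had 5.08, 5.09 and 4.01 CPM in Col and 13.2, 27.6 and 6.06 CPM in ore15-2 (1.62, SE 0.45). CAB1 had 171, 179 and 167 CPM in Col and 238, 306 and 146 CPM in ore15-2 (0.41, SE 0.23). In each of them replicate 3 was the lowest ore15-2 library, and for CAB1 it lay below Col. CAB2 and CAB3 transcripts are each 96.1% identical to that of CAB1 over the aligned part, so reads may be split among them, and CAB1 overlaps a neighbour by 108 bp. Summed, they had 178, 185 and 174 CPM in Col and 270, 367 and 157 CPM in ore15-2, which is 1.48-fold. The 12 other genes of this family had a median of -0.38, with -0.22, -0.20 and -0.72 in ore15-2 replicates 1 to 3. The summed green tissue markers given above were lowest at 199 CPM and highest at 354 CPM in ore15-2; their part in the CAB values was not tested.

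STZ, a zinc finger repressor induced by cold, salt and touch, showed the same dependence on the library. It had 4.56, 5.31 and 4.59 CPM in Col and 29.2, 19.9 and 8.58 CPM in ore15-2 (log2 fold change 1.94, SE 0.38), with changes of 2.57, 2.02 and 0.82 in replicates 1 to 3. Only in replicate 3 did it lie near the members' median. Over 4-fold were 8 members in all, CAB2, AT1G25240 and MES13 among those with at least 5 CPM, and AT1G26762, AT1G24575, AT1G30140, AT1G29540 and CLE43 among the 54 below that level. AT1G24575, near the first edge, had 0.985, 0.954 and 1.39 CPM in Col and 7.59, 5.77 and 8.29 CPM in ore15-2. CLE43, which encodes a small signalling peptide, had 0.674, 0.363 and 0.287 CPM in Col and 1.94, 1.99 and 1.72 CPM in ore15-2, on 6 to 30 counts a library. A count of 3 corresponds to 0.136 to 0.156 CPM in Col and to 0.172 to 0.596 CPM in ore15-2, so these low members rest on few reads.

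Regulators of transcription stood somewhat under the segment's median. Of 31 measured genes of that list 21 rose, 0 fell and 10 did not pass, with a median log2 fold change of 0.76 against 0.95 over all members and 0.00 over genes outside. Of the 25 among them whose listed name the reference gives, 18 rose and 7 did not pass, with a median of 0.76. Over all 31 the medians were 0.76, 0.60 and 0.81 in ore15-2 replicates 1 to 3. By the same test 79.2% of all members and 6.47% of all genes rose. Counts of risen genes in this list and those below therefore restate the choice of the segment. WRKY65 was at 0.69 and WRKY14 at 0.65, both of the WRKY family known from defence, whose 31 relatives elsewhere had a median of -0.08. ARF6, an auxin response factor that promotes flower and root development, had 39.3, 39.9 and 39.5 CPM in Col and 64.8, 74.2 and 60.04 CPM in ore15-2 (0.74, SE 0.10). TEM1, a repressor of flowering, had 73.9, 76.6 and 73.5 CPM in Col and 105, 97.2 and 88.1 CPM in ore15-2 (0.37, SE 0.10), and its genotypes did not overlap. The 3 basic helix-loop-helix members matched by product name, AT1G29950, AT1G27660 and KDR, were at 0.47, 0.36 and 0.69. Their 66 relatives elsewhere had a median of -0.14. CIB5, of the same family but not matched by product name, was at 0.87.

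Genes of protein synthesis and other basic functions rose with 1 exception. Of 20 measured genes of that list 19 rose, with a median of 1.06, and the CTP synthase AT1G30820, at -0.22, did not pass. All 14 whose listed name the reference gives rose, with a median of 0.98. FBR12, a translation factor of the eIF5A type, was at 1.29 (SE 0.29), with changes of 1.32, 1.67 and 0.72 in ore15-2 replicates 1 to 3. APT1, which salvages adenine, had 294, 298 and 291 CPM in Col, was at 1.38 and changed by 1.31, 1.78 and 0.93. PDH-E1 BETA, a subunit of pyruvate dehydrogenase, was at 1.29, and ATS9, a subunit of the proteasome lid, at 1.27. In each of these genes replicate 2 was the highest and replicate 3 the lowest. The 7 ribosomal protein genes of the segment ranged from 0.94 to 1.48, with AT1G27400 at 1.48, RPL10B at 1.399, AT1G26880 at 1.33 and AT1G25260 at 1.22. Their medians were 1.28, 1.55 and 0.94 in ore15-2 replicates 1 to 3, and those of 288 ribosomal protein genes elsewhere were 0.43, 0.78 and 0.01. In each library the median of the ribosomal members was above that of ribosomal genes elsewhere, which again restates the choice of the segment.

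Transport and wall genes mostly rose, while 5 of 10 genes listed as kinases and receptors did. Among all members 79.2% rose, against 6.47% of all genes tested, and differences between such small lists were not tested. Of 9 measured transport genes 7 rose, with a median of 1.07 (5 of the 7 whose listed name the reference gives, median 0.99). The vacuolar ABC transporters ABCC1 and ABCC11 were at 0.85 and 1.15, with the adjacent ABCC12 at 0.51, the calcium pump ACA1 was at 1.07, and the cation-chloride cotransporter CCC1 at 0.99. Of 10 measured genes listed as kinases and receptors 5 rose and 5 did not pass, with a median of 0.64. Among the 5 that rose was AT1G24620, at 1.16, an EF-hand protein rather than a kinase or receptor. Of the 8 whose listed name the reference gives, which leave out AT1G24620, 3 rose, with a median of 0.58. CIPK23, a kinase that controls potassium and nitrate uptake, was at 0.65, with 119, 95.8 and 166 CPM in ore15-2 and 79.4 to 82.7 CPM in Col, HSL1, a receptor kinase, was at 0.48, AT1G30640 at 0.64 and HERK2, of the family that senses the cell wall, at 1.36. Of 10 measured cell wall and secreted proteins 9 rose, with a median of 1.11 (8 of the 9 whose listed name the reference gives, median 1.05). AGP31, an arabinogalactan protein, was at 1.30, but with changes of 1.23, 1.88 and 0.44 in ore15-2 replicates 1 to 3. TBL38, of a family that acetylates wall sugars, was at 1.18, the lipid transfer protein LTPG1 at 1.05 and the glycan-trimming mannosidase MNS3 at 0.97.

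Of 11 measured stress and defence genes 9 rose and 1, DYL1, fell, with a median of 1.09 (8 of the 10 whose listed name the reference gives rose, median 1.08). ERD4, a membrane protein named for its response to drying, had 275, 295 and 311 CPM in Col and 620, 831 and 615 CPM in ore15-2 (1.23, SE 0.18), and SAT32, named for salt tolerance, was at 1.19. The stress list also holds GSTU13 and GSTU14. Of 6 genes listed under photosynthesis and plastid electron transfer 3 rose, with a median of 1.07. One of the 3 was TO2, at 1.25, which the annotation names thioredoxin O2 and does not place in plastids. RFNR2, the ferredoxin reductase of roots, had 157, 169 and 168 CPM in Col and 313, 294 and 310 CPM in ore15-2 (0.89, SE 0.12), while PSAK, of photosystem I, had 52.5, 62.7 and 59.2 CPM in Col and 63.2, 86.1 and 72.2 CPM in ore15-2 (0.34, SE 0.13). The hormone genes measured were ASB1, of tryptophan and auxin synthesis, at 1.05, and GA2OX2, which inactivates gibberellin, at -0.03 on 7 to 49 counts a library. Of 5 listed anthranilate synthase copies only ASB1 was in the table, and of 8 SAUR genes, which respond to auxin, 0 were. Of 5 berberine bridge enzyme-like genes 1, AT1G30700, rose.

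Most other families were higher inside the segment than their relatives elsewhere, which restates the choice of the segment. The 5 GDSL or SGNH lipases with at least 5 CPM, 4 of them AT1G28580 at 0.80, ARAB-1 at 0.85, AT1G28660 at 1.08 and AT1G28570 at 1.37, had a median of 1.08, and 26 relatives elsewhere one of 0.30. The 5 methyltransferases had a median of 1.21, with AT1G26850 at 1.22, AT1G29470 at 1.02, AT1G29790 at 1.07 and AT1G30550 at 1.35, and their 87 relatives one of -0.01. The 4 kelch repeat proteins, among them the F-box gene LCR at 1.26, with AT1G26930 at 0.78, AT1G30090 at 0.79 and AT1G27420 at 0.70, had a median of 0.79 and their relatives one of -0.03. Tetratricopeptide repeat members (6) had a median of 0.89, with AT1G26460 at 1.01, AT1G27150 at 0.60, KLCR3 at 0.77 and AT1G30290 at 1.18. Their relatives had a median of -0.02. The 3 pentatricopeptide repeat members AT1G26900, EMB2279 and AT1G25360, of a family that processes organelle RNA, were at 0.96, 0.55 and 1.3997. The WD40 proteins AT1G24530, AT1G29320 and ATCSA-1 were at 0.73, 0.60 and 0.52. Besides LCR, the F-box genes matched by product name, AT1G30200, AT1G25211 and AT1G27540, were at 0.55, 1.398 and 1.03. The leucine-rich repeat kinases matched by product name, AT1G27190, AT1G25320 and AT1G29730, were at 1.20, 0.93 and 0.30. HSL1 and RKF1, of the same type but not matched by product name, were at 0.48 and 0.47. Of name-matched families with 3 or more members at 5 CPM, only the berberine oxidases had a median near their relatives', 0.02 against 0.13. The families were grouped after the values were seen.

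**Figure D4:**
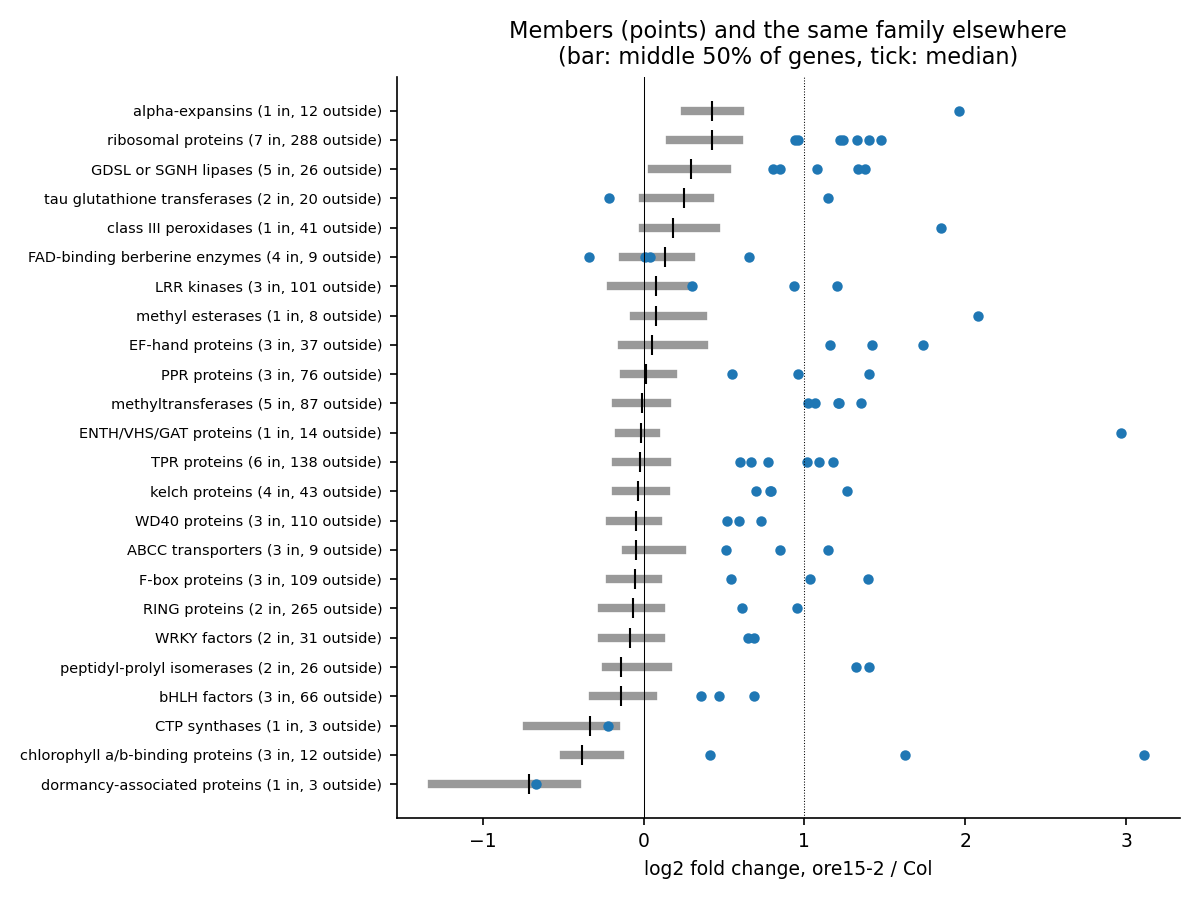
Log2 fold change of ore15-2 over Col (horizontal) of each member with at least 5 CPM (blue points), by family (vertical), with the middle 50% of the family's genes outside the segment as a grey bar and their median as a tick. Most members lie to the right of their relatives' bar, and those of the berberine oxidases, the CTP synthase, DYL1 and GSTU14 lie on or to the left of it, apart from AT1G30700 at 0.65.

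Members with short transcripts were raised more than those with long ones, in the libraries that stood apart. In the class of short members (up to 1482 bp) the median change was 1.06, 1.20 and 0.95 in ore15-2 replicates 1 to 3, and in the class of long ones (over 2144 bp) 0.89, 0.69 and 0.94. Outside the segment the short class had medians of 0.09, 0.19 and 0.02 and the long class -0.04, -0.16 and -0.01. The slope was steepest in replicate 2 and nearly absent in replicate 3, among members and elsewhere. By level, the members in the top class of Col RPKM (over 39.5) had medians of 1.10, 1.22 and 0.95 in replicates 1 to 3, and those in the bottom class (up to 12.8) 0.89, 0.73 and 0.94. The 7 long noncoding RNAs had a median of 0.85 and a range from 0.58 to 1.51, inside that of the coding members.

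**Figure D5:**
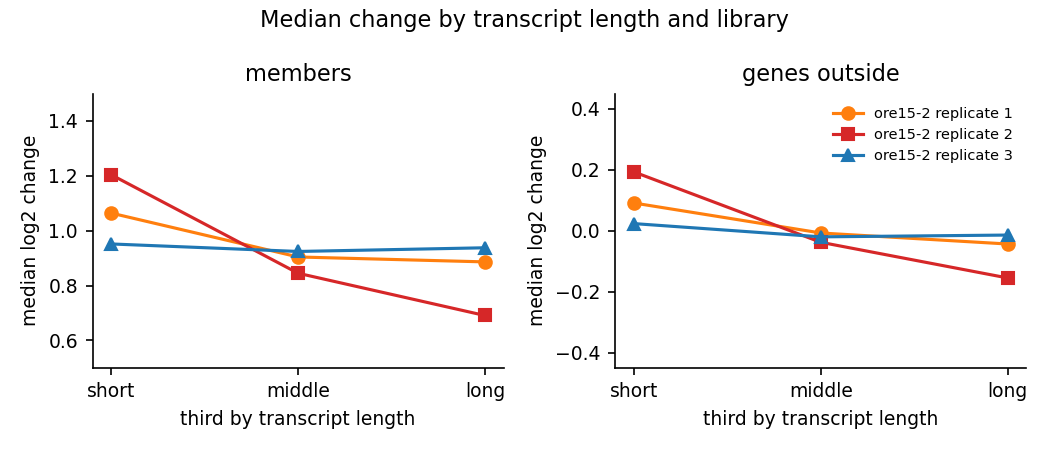
Median log2 change from the Col mean (vertical) in the short, middle and long classes of genes by transcript length (classes of equal size among members) (horizontal), for members (left) and genes outside (right), with 1 line for each ore15-2 library. The line falls from 1.20 to 0.69 among members in replicate 2 and stays between 0.92 and 0.95 in replicate 3.

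Some members cannot be read singly. Near-identical transcripts, with at least 95% identity over at least 50% of the length, were found for 10 members, and reads could be shared between such copies. AT1G29350 and AT1G29370, 99.3% identical, were at 0.98 and 0.97. AT1G25141, AT1G25175 and AT1G25211 have copies in a repeated stretch of the segment, of which the copies themselves were not in the table, and ASB1 lies in the same stretch.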

How the data were processed

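Messenger RNA of root tips was sequenced in 6 libraries, 3 of Col and 3 of ore15-2. The authors deposited gene-level read counts and, separately, RPKM values. FastQC, cutadapt, TopHat2, HTSeq and the TAIR10 genome are named in the submitters' processing notes. The sources used here give neither the strand setting nor the gene models of the counting. Overlapping genes may therefore share reads. Total counts ranged from 6396903 to 20333352 per library, and floors of 3 counts cover counting error only.

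In R 4.3.3, the quasi-likelihood F-test of edgeR 4.0.16 was run on the counts of all genes, with TMM scaling, filterByExpr, a single genotype term and Benjamini-Hochberg adjustment over 18726 genes (threshold 0.05). The standard error is the absolute log2 fold change over the root of the F statistic. A library's change is its log2 CPM (prior count 2) minus the mean over Col. Positions, symbols and product names came from the RefSeq annotation of TAIR10.1, which had an entry for each of the 394 members. Near-identical transcripts were found with blastn 2.17.0. The deposited RPKM values were used only in alternatives fitted with limma 3.58.1 on log2(RPKM + 1), which understates the change of low genes, and to sort members by level.

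Members, lists and alternatives were chosen with earlier results of these data known, and families after the values were seen. Of 143 listed genes 105 were measured, and counts are given over these and over the 87 whose listed name the reference gives. Named genes are the departing members, up to 4 members of each list and family with the highest mean CPM, the genes at both ends, and genes of small counts. Alternatives covered scaling, filters, DESeq2 1.42.0, RPKM, a replicate block, and libraries left out. The same code was checked on simulated counts drawn with these libraries' means and sizes. Each gene was drawn independently, without the shifts that set ore15-2 replicates 1 and 2 apart, so performance under such shifts was not tested. In 1 such run of ore15-2 against Col over 18726 genes it called 96 of 100 genes changed 2-fold. It called 100 of 100 made 4-fold lower and made 35 false calls among 18132. It found 19 of 20 members left unchanged inside a raised segment, 20 of 20 set well above it and 1 other member departing.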

Additional observations from a re-analysis of the deposited data

How the results depend on the processing

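The rise of the segment kept its direction under every alternative run, and no result reversed. The median log2 fold change of members was 0.90 with upper-quartile scaling, 0.68 with limma on log2(RPKM + 1), also without a low-value filter, and 0.71 with limma on log2(RPKM + 0.25). The RPKM values carry no scaling for composition, and the median of genes outside was -0.21 there, so the segment stood 0.90 above it against 0.94 in the fit of the counts. With limma on log2(RPKM + 1) 185 members rose, also without the filter, and 181 with the smaller pseudocount. DESeq2 called 333. With a replicate block 299 rose, 1 fell, the median was 0.94 and 5 and 6 members departed. The correlations of libraries with the same number were 0.06, 0.13 and -0.25, and those with different numbers ranged from -0.35 to 0.30. With 3 libraries a group they cannot settle whether the numbers pair the samples.

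Leaving out 1 library at a time, the members that rose numbered 225 to 353, those that fell 0 to 2, the median was 0.88 to 0.97, the median above that outside 0.91 to 0.96, and departing members numbered 4 to 17 above and 6 to 24 below. Without ore15-2 replicates 1 and 2 together, which takes the lone library to vary like Col, 361 rose and 3 fell, the median was 0.96, and 13 departed above and 14 below. With a minimum mean of 1 CPM 9 departed above and 13 below, and with 20 CPM 2 above and 4 below. A distance of 0.3 gave 14 and 16, and one of 1 gave 1 and 2. Which members are called departing thus depends on the distance, the level and the number of libraries that must show it. The causes of these shifts were not tested. Depth limits the 54 members under 5 CPM, which rest on few reads in ore15-2 replicates 1 and 2.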
